A study of Mus musculus with 2 samples.

Results

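Tubulin and stathmin transcripts were followed through the cell cycle of mouse cortical neurospheres, which are free-floating clusters of dividing neural stem and progenitor cells. The set was defined by name as 9 genes: the stathmin gene Stmn1, the α-tubulins Tuba1a, Tuba1b and Tuba1c, and the β-tubulins Tubb5, Tubb4b, Tubb2a, Tubb2b and Tubb6. Of the 9, 5 had a row in the expression table of 10666 genes: Stmn1, Tubb5, Tubb2a, Tubb2b and Tubb6. The 3 α-tubulins and Tubb4b were not analysed here, so each statement on tubulin concerns β-tubulin.

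The cells came from the dorsal telencephalon of wild-type C57BL/6 embryos at embryonic day 14.5 and were passaged repeatedly as spheres. The medium held B27 without retinoic acid, N2, and EGF and bFGF at 10 ng/ml each, so these are cultured progenitors under growth factors and not cells taken directly from cortex. There are 2 replicate cultures of this 1 condition, with 5748 cells in culture 1 and 7057 in culture 2, and no second group. Each culture is therefore described alone, the spread is that between the cultures, and no test was run because cells of 1 library are not replicates. The median depth was 19477 UMIs per cell for culture 1 and 14637 for culture 2, and 48 cell barcodes occurred in both cultures. Of 8 radial glia markers 6 were in the table, each detected in at least 21.1% of the cells of culture 1 and 23.1% of those of culture 2. Other glial transcripts were detected as well: 97.9% and 93.2% of cells held at least 1 of the 4 oligodendrocyte precursor markers with a row, and 52.2% and 33.3% at least 1 of the 2 astroglial markers. The former rests almost wholly on Olig2, which alone was detected in 97.3% and 91.9% of cells. The least detected of the 4 was found in 4.26% and 0.75%. No endothelial, microglial, mesenchymal or erythroid marker had a row. The part of free RNA in such detection was not tested.

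Microtubules are built from dimers of α- and β-tubulin, and mammals carry several β-tubulin genes whose proteins differ mainly in their C-terminal tails. Tubb5 is the broadly expressed isotype of dividing cells, Tubb2a and Tubb2b are enriched in the nervous system, with Tubb2b strong in migrating newborn neurons, and Tubb6 is a more divergent isotype found at low levels in many tissues. Stathmin, the Stmn1 product, binds free tubulin dimers and promotes microtubule disassembly, and it is turned off by phosphorylation as cells build the spindle. Tubulin messages are also under a feedback in which free tubulin leads to decay of mRNAs being translated, through recognition of the first residues of the nascent chain by TTC5.

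The end of the coding sequence encodes the tail and is shown for the 3 β-tubulins that the isotype contrast uses. The last 60 coding bases, stop codon included, were read 5′ to 3′ from the GENCODE vM21 transcripts (GRCm38). Capitals mark bases that differ from Tubb2a when the sequences are set against each other from the stop codon with no gap.
Tubb2a: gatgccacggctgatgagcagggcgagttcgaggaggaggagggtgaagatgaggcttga
Tubb2b: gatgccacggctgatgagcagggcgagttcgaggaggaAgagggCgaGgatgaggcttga
Tubb5: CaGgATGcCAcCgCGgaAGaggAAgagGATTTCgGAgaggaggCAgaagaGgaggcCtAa
These stretches lie on the minus strand at chr13:34074468-34074527 for Tubb2a, chr13:34127471-34127530 for Tubb2b and chr17:35834982-35835041 for Tubb5. Tubb2b differed from Tubb2a at 3 of the 60 positions and Tubb5 at 27. The 3 differing bases of Tubb2b leave the encoded residues unchanged, so this stretch of the tail is the same in Tubb2a and Tubb2b. The coding sequence of Tubb5 has 1335 bases and that of Tubb2a 1338, so without a gap part of the Tubb5 stretch is set out of step. The 27 and its capitals therefore overstate how far the tails differ, and a count with a gap was not made. Over the whole coding sequence, aligned with gaps allowed, Tubb2a and Tubb2b were 96.5% identical, and Tubb5 was 84.6% identical to Tubb2a and 84.0% to Tubb2b. The first 12 coding bases, which encode the residues that the feedback reads, were atgagggaaatc in Tubb5, atgcgcgagatc in Tubb2a and atgcgagagatc in Tubb2b.

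Such likeness bears on the counts, since the library reads the 3′ ends of transcripts. In the last 400 bases of the annotated transcript, 37.3% of the 31-base words of Tubb2a also occurred in transcripts of 5 other genes (Tubb2b, Tubb5, Tubb6, Tubb2a-ps2 and Tubb4b-ps2). No word of the ends of Stmn1, Tubb5, Tubb2b or Tubb6 did so. Values of Tubb2a are therefore less certain than those of the other members, because counting could share its reads with a near-identical gene.

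The genes lie on separate chromosomes apart from Tubb2a and Tubb2b, which are neighbors on chromosome 13 (GRCm38, GENCODE vM21). Stmn1 (ENSMUSG00000028832) spans chr4:134468320-134473843 on the plus strand. Tubb5 (ENSMUSG00000001525) spans chr17:35833921-35838306, Tubb2a (ENSMUSG00000058672) chr13:34074274-34078007 and Tubb2b (ENSMUSG00000045136) chr13:34126748-34130466, all on the minus strand. Tubb6 (ENSMUSG00000001473) spans chr18:67390717-67402749 on the plus strand.

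Each cell carries a deposited cell-cycle position θ, an angle from 0 to 2π, where cells near 0 are in G1 or G0 and cells near π approach mitosis. The expression values are normalized for the depth of each cell and were taken as log2(value + 1). The question was which members follow the cycle and whether the isotype of dividing cells does so more than the neuron-enriched isotypes. The main measure is the mean log2(value + 1) of cells within 0.25π of π (2056 cells of culture 1 and 1666 of culture 2) minus that of cells within 0.25π of 0 (2459 and 3991 cells), called the window difference below.

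Stmn1, Tubb5 and Tubb6 rose from G1 toward mitosis in both cultures, and Tubb2a and Tubb2b rose by much less. Stathmin changed most. Mean log2(value + 1) of Stmn1 was 2.21 around 0 and 3.94 around π in culture 1, and 2.22 and 3.86 in culture 2. The window difference of Stmn1 was 1.73 and 1.64, or 1.69 ± 0.059 (SD, n = 2 cultures), which is a 3.22-fold ratio of value + 1. It ranked 19 among the mean window differences of the 10666 genes.

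Tubb5, the isotype of dividing cells, was 3.62 around 0 and 4.92 around π in culture 1 and 3.47 and 4.69 in culture 2, again on the log2(value + 1) scale. Its window difference was 1.299 in culture 1 and 1.21 in culture 2 (mean 1.26 ± 0.060, SD, n = 2), a 2.39-fold ratio at rank 37. For both Stmn1 and Tubb5 the higher level near mitosis was seen in each culture, by many times the spread between cultures.

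Tubb6 rose less and from a lower detection. Over all cells it was detected in 75.7% of culture 1 (exact 95% binomial interval 74.6 to 76.8%) and 77.4% of culture 2 (76.4 to 78.4%), intervals that cover counting error only. It was detected in 68.2% of cells around 0 and 85.0% around π in culture 1, and in 70.3% and 91.7% in culture 2. Its mean was 1.27 around 0 and 1.86 around π in culture 1, and 1.22 and 1.94 in culture 2, a window difference of 0.59 and 0.71 (mean 0.65 ± 0.087, SD, n = 2). This ranked 127, well inside the upper tail of all genes, whose 95th percentile was 0.27 in culture 1 and 0.24 in culture 2.

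Tubb2a, one of the neuron-enriched isotypes, was 2.80 around 0 and 3.01 around π in culture 1, and 2.50 and 2.62 in culture 2. Tubb2b went from 4.08 to 4.22 and from 3.92 to 4.05. The window differences were 0.21 and 0.12 for Tubb2a (mean 0.17 ± 0.068, SD, n = 2), and 0.13 in each culture for Tubb2b (mean 0.13 ± 0.00062). Both lie below the 95th percentile of all genes in each culture, although they are above 0, as in 42.1% of all genes in both cultures. Their means ranked 853 (Tubb2a) and 1054 (Tubb2b) among the 10666 genes. The windows miss part of the course of Tubb2b. Its periodic loess line ran 0.35 in culture 1 and 0.34 in culture 2, from minima at 0.605π and 0.49π to maxima at 1.32π and 1.285π. The line of Tubb2a ran 0.30 and 0.22.

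**Figure D1:**
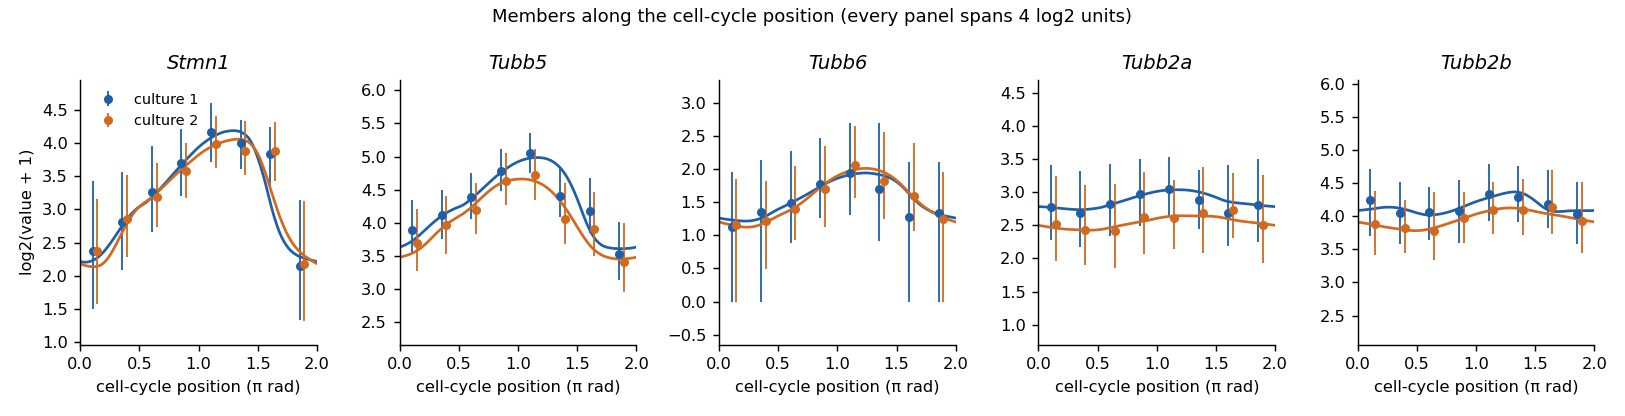
Mean log2(value + 1) of each member in 8 classes of the cell-cycle position (x axis, in units of π radians), for culture 1 (blue) and culture 2 (orange). Points are class means, bars run from the first to the third quartile of cells, and lines are periodic loess fits with a span of 0.3. Every panel spans the same range of log2 units. Stmn1 and Tubb5 rise and fall widely, Tubb6 does so by less, and Tubb2a and Tubb2b vary the least.

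The share of the variance between cells that the position accounts for divides the members in the same way. It was taken as the R² of a fit of 2 harmonics of θ to log2(value + 1), and a gene was called at an R² of 0.05 or more in both cultures. Of the 5 members 3 were called, where 4.01% of all genes were called (428 of 10666). R² was 0.37 in each culture for Stmn1, 0.50 and 0.31 for Tubb5, and 0.072 and 0.11 for Tubb6. It was 0.016 and 0.0039 for Tubb2a and 0.026 and 0.013 for Tubb2b, against a median of 0.0032 and 0.0024 over all genes. At an R² of 0.1 Stmn1 and Tubb5 were called, and 2.25% of all genes. The same 3 members had a window difference of at least 0.5 in both cultures, as did 1.61% of all genes, and no member was lower around π by 0.5, as were 0.0281% of all genes. Of the 10666 genes, 5474 in culture 1 and 5748 in culture 2 were detected in only 5 to 40% of cells, fewer than any member. The shares, medians and ranks over all genes were not matched for detection.

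The deposited position was itself computed from cell-cycle genes, and whether any member was among them is not given in the sources used here. A second position was therefore built in each culture from 91 S and G2M genes with no tubulin and no stathmin. It had a circular correlation of 0.931 with the deposited one in culture 1 and 0.913 in culture 2. Along it, R² was 0.35 and 0.37 for Stmn1, 0.49 and 0.30 for Tubb5 and 0.068 and 0.10 for Tubb6, where 3.96% of all genes were called. For these members R² along the second position was thus within 0.020 of that along the deposited one.

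The contrast of isotypes sets Tubb5 against the mean of Tubb2a and Tubb2b, as the only isotypes of either kind with a row. The window difference of Tubb5 was larger by 1.13 in culture 1 and 1.09 in culture 2, which is a mean of 1.11 ± 0.026 on the log2 scale (SD, n = 2). Counting Tubb6 with Tubb5 lowered the contrast to 0.80, with the same sign in both cultures. The contrast compares changes along the cycle within each gene and says nothing on which message is more abundant.

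Total RNA also varies along the cycle. The loess line of log2 total UMIs ran 0.43 from minimum to maximum in each culture, with its highest points at 0.875π (culture 1) and 0.865π (culture 2). When the scaling for depth was undone, the window difference of Tubb2a became 0.39 and that of Tubb2b 0.40 (means of both cultures), while Stmn1 reached 1.904, Tubb5 1.52 and Tubb6 0.80. The scaling moved other well detected genes as well. Over genes detected in more than 90% of cells, the median window difference of culture 1 went from -0.020 to 0.24 (669 genes) and that of culture 2 from -0.071 to 0.17 (505 genes). The contrast of isotypes was then 1.12. Position still accounted for a share of 0.40 and 0.38 of the variance of Stmn1 that depth left, and of 0.50 and 0.31 for Tubb5. For Tubb6 this share was 0.056 in culture 1 and 0.11 in culture 2. Depth alone accounted for 0.16 and 0.020 of the variance of Tubb6.

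**Figure D2:**
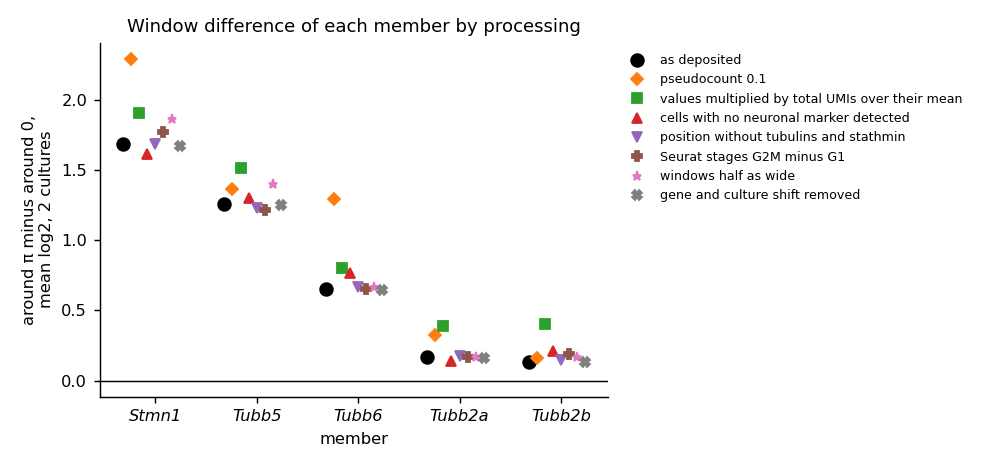
Window difference (around π minus around 0, mean log2 of 2 cultures, y axis) of each member (x axis) with the values as deposited (black circles) and under 7 other ways of processing (colored symbols). The order Stmn1, Tubb5, Tubb6 is kept under each, and Tubb2a and Tubb2b move from 0.17 and 0.13 to 0.39 and 0.40 when the scaling for depth is undone.

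The rise was gradual and began early. For this, θ was cut into 8 classes of 0.25π, numbered from 0 upward, so that class 5 starts at π. In culture 1 Tubb5 was 3.89 in class 1 and then 4.12, 4.39, 4.78 and 5.05 in classes 2 to 5. In culture 2 the same classes were 3.70, 3.96, 4.20, 4.63 and 4.71. Over the same classes Stmn1 rose from 2.37 in each culture to 4.16 (culture 1) and 3.99 (culture 2). Both genes thus gained in every class from G1 to the approach of mitosis, in both cultures.

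The falls of Tubb5 and Stmn1 differed. Past π, values as deposited dropped both early and late along the position for Tubb5 and mostly late for Stmn1. From class 5 to class 6, Tubb5 of culture 1 went from 5.05 to 4.41 and that of culture 2 from 4.71 to 4.06, a change of -0.65 ± 0.0088 (SD, n = 2). Between the same classes Stmn1 went from 4.16 to 3.996 and from 3.99 to 3.89, a change of -0.13 ± 0.044. A change of -0.5 or less in both cultures was seen in 0.591% of all genes from class 5 to class 6, and among members in Tubb5 alone. With the depth scaling undone Stmn1 (-0.76 and -0.51) and Tubb6 (-0.59 and -0.52) passed this size as well, and Tubb5 changed by -1.24 and -1.06.

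Stmn1 was 3.83 in culture 1 and 3.88 in culture 2 in class 7, and 2.15 and 2.18 in class 8. Its change from class 7 to class 8 was -1.68 in culture 1 and -1.70 in culture 2 (mean -1.69 ± 0.015, SD, n = 2), where 0.375% of all genes changed by -0.5 or less in both cultures. Among members Stmn1 alone passed this size in both cultures. Tubb5 changed by -0.65 and -0.498 from class 7 to class 8, and from class 6 to class 7 by -0.23 and -0.15. The change of Tubb5 was thus lower than that of Stmn1 by 0.48 and 0.55 from class 5 to class 6, and was the smaller of the pair by 1.03 and 1.204 from class 7 to class 8.

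**Figure D3:**
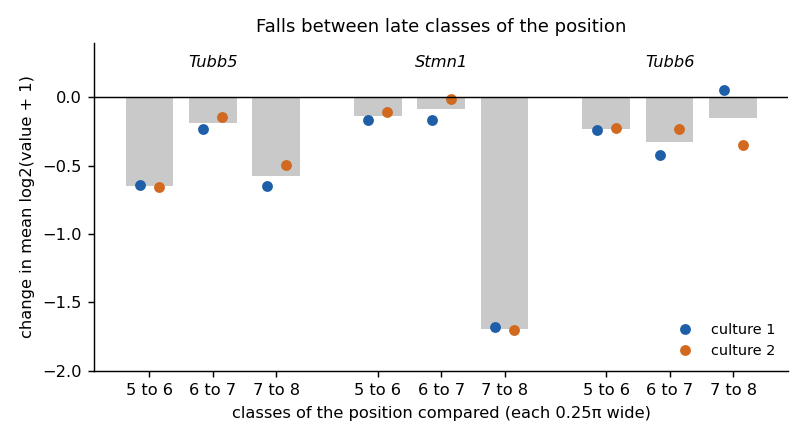
Change in mean log2(value + 1) (y axis) from one 0.25π class of the position to the next (x axis, class 5 to 6, 6 to 7 and 7 to 8) for Tubb5, Stmn1 and Tubb6. Bars are means of 2 cultures and points the cultures. With the values as deposited, the mean change of Tubb5 is -0.65 from class 5 to 6 and -0.57 from class 7 to 8. That of Stmn1 is -0.13 from class 5 to 6, -0.088 from class 6 to 7 and -1.69 from class 7 to 8.

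Few cells stand behind classes 6 and 7. They held 85 and 64 cells in culture 1 and 279 and 189 in culture 2, and their depth was lower, with median UMIs of 14111 and 14812 in culture 1 and of 11882 and 12386 in culture 2. With the depth scaling undone the change of Stmn1 from class 5 to class 6 was -0.64 and not -0.13, and from class 7 to class 8 it was -1.45, so how early Stmn1 fell depends on that scaling. The part of depth in the timing was not tested. The difference between the changes of Tubb5 and Stmn1, in which the scaling of a cell largely cancels, was -0.52 from class 5 to class 6 as deposited and -0.50 along the position without tubulins and stathmin. From class 7 to class 8 it was 1.12 and 1.19. The comparison of these classes was chosen after their values were seen.

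Tubb6 fell in another way. It changed by -0.24 and -0.23 from class 5 to class 6 and by -0.42 and -0.23 to class 7, and to class 8 the cultures differed in sign (0.053 and -0.35). The loess lines placed the maximum of Tubb6 at 1.235π and 1.245π, that of Stmn1 at 1.29π and 1.34π and that of Tubb5 at 1.16π and 1.04π in cultures 1 and 2. The lines smooth over the sparse late classes, so the maximum of Stmn1 moved between 1.17π and 1.43π (means of both cultures) with the span.

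Cells without any Stmn1 were almost all in G1 or G0. There were 427 such cells in culture 1 (7.43%) and 347 in culture 2 (4.92%), and 94.8% and 96.3% of them lay within 0.25π of 0, where 42.8% and 56.6% of all cells lay. Their median total UMIs were 17846 and 13026, against 19615 and 14738 in cells with Stmn1. Tubb6 was missing from more cells, 24.3% and 22.6%, with 56.0% and 74.5% of those near 0. Cells without Tubb6 had median total UMIs of 13942 and 13076, against 21128 and 15085 in cells with it.

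Tubb5 and Tubb2b were detected in nearly every cell, in 99.9% of the cells of culture 1 for each and in 99.04% and 99.4% of culture 2. Tubb2a was detected in 97.8% and 92.9%. Values of one gene could not be compared between cultures. After the scaling for depth, the nonzero values of each gene carried an offset of their own in each culture, estimated at 0.34 in culture 1 and -0.31 in culture 2 for Stmn1 and at -0.28 and 0.31 for Tubb5 on the log2 scale. The window differences within a culture hardly depended on it: with the offset removed, Stmn1 gave 1.67 in each culture and Tubb5 1.299 and 1.21. On this estimate a median cell held 24.3 reads of Tubb5 in culture 1 and 9.73 in culture 2, 20.6 and 10.9 of Tubb2b, 8.06 and 3.99 of Tubb2a, 7.19 and 7.55 of Stmn1, and 1.98 of Tubb6 in each. Tubb6 thus rests on the fewest reads.

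The neuron-enriched isotypes were then read in cells with neuronal transcripts. Of 18 neuronal markers 7 had a row (Dcx, Gad1, Nrxn3, Elavl3, Elavl4, Map2 and Rbfox3), and Tubb3 and Stmn2, which are themselves a tubulin and a stathmin of neurons, were not analysed here. Cells with 5 or more of the 7 were rare, 31 in culture 1 and 11 in culture 2. Against cells with none, Tubb2b was higher by 0.67 and 0.22 and Tubb2a differed by 0.025 and -0.19. Tubb5 differed by 0.61 and -0.12. The neuron-enriched isotypes minus Tubb5 gave -0.27 in culture 1 and 0.14 in culture 2 (mean -0.065 ± 0.29, SD, n = 2), so the sign was not shared. It was not shared either with 3 or more markers, where 1038 and 741 cells gave -0.085 and 0.065. Cells with 5 or more markers were also deeper, with a median of 29080 UMIs against 17240 in culture 1. Position was not matched in these comparisons. Within 0.25π of 0 lay 3 of the 31 and 5 of the 11, against 278 of 558 and 736 of 1199 cells with none. Between cells within 0.25π of 0, Tubb5 differed by 0.28 and -0.026, and the neuron-enriched isotypes minus Tubb5 gave -0.22 and 0.22.

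Among cells within 0.25π of 0, the neuron-enriched pair differed in opposite directions between cells with and without Dcx. Dcx, a microtubule-binding protein of migrating young neurons, was detected in 151 of these cells in culture 1 and 57 in culture 2. Tubb2b was 5.04 in cells with Dcx and 4.02 in cells without in culture 1, and 4.55 and 3.91 in culture 2. The difference was 1.02 and 0.64 (mean 0.83 ± 0.27, SD, n = 2). Among all genes, 1.13% were higher with Dcx by 0.3 or more in both cultures.

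Tubb2a was lower in the same cells. It was 2.09 with Dcx and 2.84 without in culture 1 and 2.13 and 2.51 in culture 2, a difference of -0.76 and -0.38 (mean -0.57 ± 0.26, SD, n = 2). Tubb6 was lower as well, by -0.95 and -0.47, and 1.44% of all genes were lower with Dcx by 0.3 or more in both cultures. Stmn1 differed by 0.40 and 0.14 and Tubb5 by 0.17 in each culture.

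The other markers mostly did not show this. Of the 7 neuronal markers 3 had Tubb2b higher and Tubb2a lower in both cultures (Dcx, Nrxn3 and Rbfox3), and for Dcx alone were both by 0.3 or more. With Elavl4 both isotypes were slightly higher, Tubb2a by 0.047 and 0.032 and Tubb2b by 0.12 and 0.15. The pattern was not limited to neuronal markers. Of 4 markers of oligodendrocyte precursors, 2 had it in both cultures. With Sox10, a transcription factor of that lineage, Tubb2b was higher by 0.70 and 0.39 and Tubb2a differed by -0.79 and -0.37, over 105 and 25 cells with Sox10. With Pdgfra, a growth factor receptor of these precursors, the values were 0.51 and 0.18 for Tubb2b and -0.39 and -0.081 for Tubb2a.

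Slc1a3, a glutamate transporter of radial glia and astrocytes, had the opposite signs, as the only one of the 6 radial glia markers to do so in both cultures. For Nes, Pax6 and Hes1 a sign differed between the cultures, and Vim and Fabp7 were each missing from only 3 of these cells in culture 2, too few to compare. Tubb2a was 2.88 in cells with Slc1a3 and 2.01 in cells without in culture 1, and 2.53 and 2.20 in culture 2, a difference of 0.88 and 0.33, where 1.16% of all genes were higher by 0.3 or more in both cultures. Tubb2b was lower with Slc1a3, by -0.85 in culture 1 and -0.19 in culture 2, and was thus not among the 0.15% of all genes that were lower by 0.3 or more in both. Cells without Slc1a3 numbered 242 and 310. The signs seen with Slc1a3 were not limited to it. Of the 2 astroglial markers 1, Aldh1l1, had them in both cultures, by less: 0.23 and 0.091 for Tubb2a and -0.30 and -0.052 for Tubb2b.

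**Figure D4:**
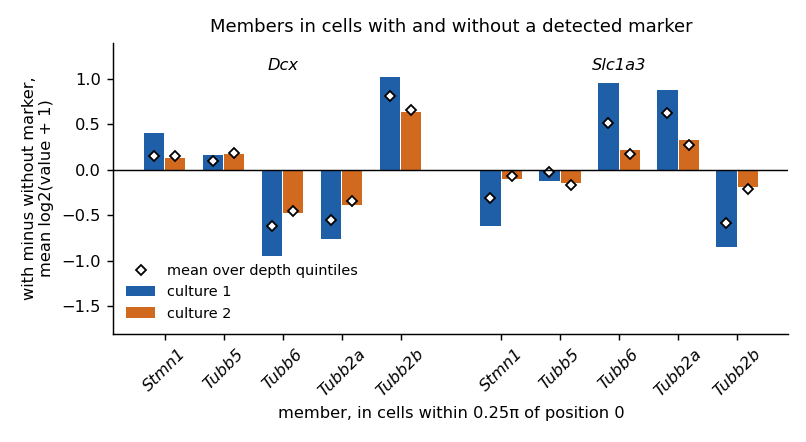
Mean log2(value + 1) of each member (x axis) in cells with a detected marker minus cells without it (y axis), among cells within 0.25π of position 0, for Dcx on the left and Slc1a3 on the right. Bars are culture 1 (blue) and culture 2 (orange), and open diamonds are the mean over quintiles of total UMIs. Tubb2b is higher with Dcx by 1.02 and 0.64, Tubb2a is lower by 0.76 and 0.38, and both signs turn for Slc1a3.

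Depth moved with these classes in culture 1. Cells with Dcx had a median of 11327 UMIs there and cells without 18513, against 15559 and 14091 in culture 2. Averaged over quintiles of total UMIs, the Dcx difference was 0.81 and 0.65 for Tubb2b and -0.55 and -0.34 for Tubb2a. For Tubb6 it was -0.62 and -0.45. Some quintiles held few cells with Dcx, as few as 7 in culture 1 and 1 in culture 2, and in culture 2 the Tubb2b difference ran from -0.38 to 1.39 over them. The Tubb2a difference ran from -1.07 to 0.21 over quintiles of culture 1 and from -0.99 to 0.060 over those of culture 2. Cells with Slc1a3 had a median of 18896 UMIs in culture 1 and cells without 10715, against 14202 and 12959 in culture 2, and over quintiles the Slc1a3 difference was 0.63 and 0.27 for Tubb2a and -0.59 and -0.20 for Tubb2b. These classes rest on detection of 1 gene and are not cell types, and they were chosen after the values were seen.

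Between cells, the members were tied loosely. The highest correlation of log2(value + 1) was that of Stmn1 with Tubb5, with r = 0.55 over 5748 cells in culture 1 and 0.44 over 7057 in culture 2, and it fell to 0.25 and 0.20 once the harmonics of the position were removed. For Tubb5 with Tubb2b r was 0.33 and 0.36 before that step and 0.36 and 0.40 after it. Tubb2a and Tubb2b gave 0.17 and 0.39, and Tubb2b with Tubb6 gave -0.18 in culture 1 and 0.14 in culture 2. The cells of a culture share 1 library and the paralogs may share reads, so these are descriptions only.

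The genes with the most similar profile were searched among 8328 genes detected in at least 5% of cells of each culture, over means in 20 classes of the position. For Stmn1 they were the chromatin protein gene Hmgb1 (r = 0.99 in each culture), the kinetochore gene Pmf1 and the centromere gene Cenpw. For Tubb5 they were Tmpo, which encodes lamina-associated proteins (0.95 and 0.97), and Lsm2 and Lsm3, which encode RNA-binding proteins of the splicing machinery. Tubb6 was most like the spindle and kinetochore genes Nuf2 (0.89 in each), Tpx2 and Kif22. The nearest profiles to Tubb2a (1810026B05Rik, Mars and 2700099C18Rik) and Tubb2b (Hp1bp3, Ubald2 and Nrf1) had a lower r, of 0.69 to 0.82.

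Other genes of the microtubule system were taken from lists that leave out most spindle genes. Of their 79 genes with a row 4 were called, or 5.06%, which is near the 4.01% of all genes. Of 5 further tubulins with a row, 1 was called, Tubg1, the γ-tubulin that nucleates microtubules at centrosomes, with a window difference of 0.55 in culture 1 and 0.44 in culture 2. The 2 other stathmin genes with a row were not called, with window differences of 0.093 and -0.077 for Stmn3 and -0.044 and -0.16 for Stmn4. None of 9 genes of the γ-tubulin ring complex and none of 13 genes of tubulin modification was called. Of 20 tubulin folding genes 1 was called, the prefoldin gene Vbp1 (0.37 and 0.31), and of 6 severing genes 1, the AAA ATPase gene Fignl1 (0.29 and 0.23). Of 23 microtubule-associated genes 1 was called, the microtubule polymerase gene Ckap5 (0.61 and 0.73), which is also a G2M gene of the second position. Ttc5, which encodes the reader of the tubulin feedback, had a window difference of -0.018 and -0.019. All 4 called genes were higher around π than around 0, but their highest classes of the position differed. Of 20 classes, the highest was centered at 0.55π in each culture for Fignl1 and at 1.35π and 1.65π for Vbp1. It was centered at 0.95π in each for Tubg1 and at 1.15π in each for Ckap5. Map1b, which encodes a microtubule-associated protein of growing axons, was lower there by a window difference of -0.55 and -0.61, one of the 3 genes that make up the 0.0281% given above, although its R² of 0.039 in culture 1 and 0.075 in culture 2 did not pass in both.

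Promoter sequence was at hand for Tubb5, which rose along the cycle, and Tubb2a, which hardly did, and is shown so that they can be set side by side. The 120 bases before the RefSeq start (GRCm38.p6, minus strand) are given 5′ to 3′, with capitals at matches on either strand to the CCAAT box, the TATA box (letters TATAAA), the GC box (GGGCGG), the cAMP response element (TGACGTCA) and the cell cycle genes homology region, searched as TTTGAA or as TTCGAA.
Tubb5, chr17:35838302-35838421: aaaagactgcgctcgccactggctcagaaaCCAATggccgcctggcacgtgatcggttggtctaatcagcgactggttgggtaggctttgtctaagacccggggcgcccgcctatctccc
Tubb2a, chr13:34078009-34078128: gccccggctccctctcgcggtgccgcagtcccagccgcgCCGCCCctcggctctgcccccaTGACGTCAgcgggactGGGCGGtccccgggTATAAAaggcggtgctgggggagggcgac
In the 250 bases before the start, Tubb5 held 2 matches to CCAAT and none to the other motifs. Tubb2a held none to CCAAT, 1 to TATAAA, starting 29 bases before the start site, 2 to GGGCGG and 1 to TGACGTCA. Of 32851 RefSeq promoters, 33.8% held CCAAT, 12.4% TATAAA, 32.7% GGGCGG, 1.55% TGACGTCA and 17.1% TTTGAA or TTCGAA in the same window. A match is a description of the letters and not a site of binding.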

How the data were processed

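Single-cell RNA-seq of 2 replicate cultures of 1 condition was used. Per the study's methods, the authors quantified spliced counts with Alevin (Salmon 1.3.0) against GRCm38, removed outlying cells, including by a doublet score, and normalized for library size, with integration by Seurat 3.2.2. The labels and the methods name different versions of the 10x 3′ kit. The deposited expression values are a signal on a linear scale, already normalized for depth. The authors' per-cell table also holds each cell's depth, a sum of estimated counts, and, as other values, the position in radians and cell-cycle stages.

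No further cells were removed and no count model was used. The step that gave each gene an offset in each culture is not given in the sources used here. The offset was estimated by taking low nonzero values as whole reads. After its removal, 99.8% and 99.9% of the Tubb6 values under 6.5 reads lay within 0.1 of a whole number, but only 49.9% of those of Tubb2a in culture 2, so whole reads were not recovered in general. Values were transformed as log2(value + 1). Loess was periodic, of degree 2, with a span of 0.3 of the data repeated over 3 periods. Symbols were found for 10662 of 10666 genes. Promoters of 2 of the 5 members were in the RefSeq table. Python 3.11.15, numpy 2.4.6 and pandas 2.3.3 were used, and the steps were tested on simulated data. The members and lists were chosen with earlier results of these data known. Named genes are the members, the stathmin family and Tubb3, called genes of the microtubule lists and the 3 genes most similar to each member. The single cell markers, Map1b, Ttc5 and the genes of the closing section were named after their values were seen. Alternatives were the pseudocount, the depth scaling, other positions, windows, spans and thresholds, cells without neuronal markers, each culture left out and, chosen after seeing the data, removal of the offset. With a single condition no p-value is given, and the SD rests on 2 cultures. Culture 1 is deeper, so its low values are more precise.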

Additional observations from a re-analysis of the deposited data

How the results depend on the processing

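The contrast of isotypes (1.11) was positive under every alternative. It was 1.07 along the position without tubulins and stathmin, 1.04 between the deposited G2M and G1 stages of Seurat, 1.23 with windows that were narrower by a factor of 2, and 0.804 with Tubb6 counted with Tubb5, and 1.09 to 1.13 with each culture left out. The count of members called stayed at 3 except for 2 at an R² of 0.1. Neuron-enriched isotypes minus Tubb5 in cells with neuronal markers ran from -0.268 to 0.138 with each culture left out, so the sign rests on which culture is used: without culture 1 it was 0.138, and the cause was not tested. Neuronal markers without Map2 gave -0.10 in culture 1 from 4 cells and no value in culture 2, where no cell held 5 of them. No paired analysis was possible because there is 1 condition and no second group. A pseudocount of 0.1 raised the window difference of Tubb6 from 0.65 to 1.29 and that of Tubb2a from 0.17 to 0.32, and the loess maxima moved by more than the spread between cultures in 18 of 45 cases, mostly with the span or the depth scaling. No window difference of a member changed sign under these alternatives. The fewest reads stand behind Tubb6 and the fewest cells behind classes 6 and 7 of the position.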

Other observations

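Among cells within 0.25π of 0, chosen for description after the values were seen, the genes that varied most closely with Stmn1 from cell to cell were Hmgb1 (r = 0.50 in culture 1 and 0.45 in culture 2), H2afv (0.42 in each) and Ptma (0.45 and 0.41), which encode chromatin-associated proteins. Mt3, a metallothionein gene, varied the other way (-0.32 and -0.26). For Tubb2b the closest gene was Tubb5 (0.36 and 0.42) and the next was Stmn4, a stathmin gene of neurons (0.22 and 0.24). For Tubb2a they were Tubb6 (0.27 and 0.26) and, among genes outside the tubulins, Hbegf (0.22 and 0.20) and the radial glia gene Fabp7 (0.32 and 0.19). Depth differs between these cells and was not removed.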
